A study of Mus musculus with 20 samples.

Results

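The effect of tafazzin knockdown was compared between heart and skeletal muscle of the mouse, gene by gene, as the change in muscle minus the change in heart. All 20 libraries of the study entered the comparison, chosen because they are the 4 groups that form it: 5 WT hearts, 5 Taz-KD hearts, 5 WT muscles and 5 Taz-KD muscles. Each library came from a different mouse, so no mouse gave both tissues. WT mice were C57BL/6N, and Taz-KD mice carried the transgene ROSA26H1/tetO-shRNA:TAZ, from which doxycycline induces a hairpin RNA against Taz. Both genotypes ate chow with 625 mg/kg doxycycline until 20 weeks of age, so the drug is shared and the transgene is not: WT animals lacked it altogether. The hairpin is induced in the whole animal, not in 1 cell type. The muscle was taken at the femur and is named no further in the labels.

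Tafazzin remodels cardiolipin, the signature phospholipid of the inner mitochondrial membrane, and its loss causes Barth syndrome, a disease of heart and skeletal muscle. Cells with disturbed mitochondria often start the integrated stress response, in which kinases phosphorylate the translation factor eIF2, translation in general slows, and the transcription factor ATF4 is made in larger amounts. ATF4, bound to DNA together with C/EBP family partners, raises genes for amino acid synthesis and import, for charging of transfer RNA and for the folate-bound one-carbon units made from serine. Heart and skeletal muscle are both known to mount this response when mitochondria fail.

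Over the genes shared by both count tables, library totals ran from 26952503 to 35289360 counts in heart and from 36368202 to 74259247 in muscle. The labelled tissues matched their markers: cardiomyocyte markers summed to 31400 to 46090 CPM (counts scaled to 1 common library total over all 20 libraries) in heart and to 148 to 916 CPM in muscle, and skeletal myofibre markers to 99020 to 365600 CPM in muscle and 839 to 1896 CPM in heart. The WT muscle libraries A33 and A55 stood apart. Their median correlation of log expression with the other muscle libraries was 0.963 and 0.969, against 0.989 to 0.993 for the other 8, and 0.981 to 0.987 among hearts. A33 had the highest summed lymphocyte markers (561 CPM, others of its group 32.9 to 184) and adipocyte markers (6618 CPM, others 1496 to 3687), and A55 the highest slow fibre markers (32860 CPM, others 701 to 17710) and the lowest fast fibre markers (57110 CPM, others 111600 to 254000). In muscle of mixed fibres, fewer cells of a type and less RNA per cell cannot be told apart. Where a named gene gained or lost a call without A33 and A55, both values are given. Rn7sk, a small nuclear RNA without a poly(A) tail, lay at 6225 to 8996 CPM in heart and 0.0250 to 0.633 CPM in muscle. Yet 1 library protocol is described for both tissues, and whether the libraries were made alike was not tested. Levels in CPM set beside each other between heart and muscle, here and below, carry this limit and rest on the scaling between tissues.

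The hairpin lowered its target in both tissues, and a difference in the size of the fall did not pass the test. Taz measured 28.8, 29.1, 31.2, 31.6 and 30.8 CPM in WT hearts and 9.34, 8.62, 10.0, 9.04 and 8.82 CPM in Taz-KD hearts. Its muscle values were 51.9, 66.5, 66.9, 68.0 and 69.1 CPM in WT and 16.2, 16.4, 17.6, 16.6 and 19.0 CPM in Taz-KD. No Taz-KD library reached a WT library in either tissue, and the mean that remained was 30.3% of WT in heart and 26.6% in muscle. Within each tissue the fall had an exact two-sided permutation p of 0.00794, the smallest that relabelling 5 and 5 libraries can give. The change in muscle minus that in heart was -0.18 on the log2 scale (95% interval -0.42 to 0.05, adjusted p = 0.381). Adjusted p values given here are from the quasi-likelihood test of edgeR, adjusted after Benjamini and Hochberg over all genes tested. The exceptions are the lowest or highest adjusted p over other settings, which include DESeq2 and limma-voom. Relabelling the genotypes within each tissue gave the difference an exact permutation p of 0.698 over 63504 relabellings. Taz overlaps Dnase1l1 on the other strand, and the strand setting of the counting is not given in the sources used here.

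Far more genes passed the test in heart than in muscle. The genotype effect differed between the tissues for 952 of 20612 genes tested (4.62% of all genes), 632 with the effect higher in heart (3.07%) and 320 with it higher in muscle (1.55%). Tested alone, heart had 2799 genes higher in Taz-KD (14.4% of 19401) and 1993 lower (10.3%). Muscle had 3 genes changed (0.0192% of 15663): Taz, Mthfd2 and Setd5. At an unadjusted p under 0.05 the counts were 4059 genes for the difference, 7086 in heart and 2362 in muscle. DESeq2 called 144 genes in muscle, 991 differences higher in heart and 598 higher in muscle.

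The test in muscle was less precise, and the counts of differences moved with single libraries. Standard errors of the log2 fold changes had a median of 0.104 in heart and 0.183 in muscle over the 14726 genes tested in heart, in muscle and jointly, and the median biological coefficient of variation 0.127 and 0.231. The 95% interval of the difference reached a median of 0.469 log2 units to either side of its value. Leaving out the WT muscle A57 raised the calls to 1402 higher in heart and 640 higher in muscle, and leaving out the Taz-KD heart R1796 lowered them to 417 and 190. The calls higher in muscle also fell to 212 without the WT heart R1791, 206 without the WT heart R1795 and 192 without the Taz-KD heart R1793. Without A33 and A55, 647 and 260 genes were called, among them 449 of the 632 and 205 of the 320. Each difference was also computed under up to 38 other settings of scaling, filter, tool and libraries, and calls that were often lost there are given as such.

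Genes that had changed in heart were followed into muscle over the 14726 genes. Of 2487 genes that rose in heart, 531 (21.4%) had a called difference, all of them higher in heart, and the muscle value was above 0 for 1593 (64.1%, against 47.9% of all 14726). Their median log2 fold change was 0.44 in heart and 0.08 in muscle. Among the 531, the muscle value was above 0 for 192 and below 0 for 339. Of 1686 genes that fell in heart, 275 (16.3%) had a called difference, all higher in muscle, and the muscle value was above 0 for 667 (39.6%), with medians of -0.42 in heart and -0.10 in muscle. Among the 10553 genes without a call in heart, 54 (0.512%) had a called difference. The heart libraries enter both the heart call and the difference, so these shares describe the overlap of the calls and were not tested. In all, 4171 genes were called in heart and not in muscle, and for 3366 of them the difference itself did not pass, so a call in heart alone does not show that muscle behaved differently.

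The larger the heart change, the more often the difference passed. The heart change is itself a term of the difference, so these shares describe the calls and their trend was not tested. Among genes that rose over 4-fold in heart, 88.2% of 76 had a called difference, with a median log2 fold change of 2.78 in heart and 0.30 in muscle. Among those that rose under 1.4-fold, 5.33% of 1444 had one. On the falling side the shares were 56.2% of 16 genes that fell over 4-fold and 10.2% of 1077 that fell under 1.4-fold. Of the 282 genes that rose over 2-fold in heart, 15 had a muscle value over 2-fold in the same direction, and of the 146 that fell over 2-fold, 29 did. Across the 14726 genes the 2 tissues' log2 fold changes correlated with Pearson's r of 0.168, and 0.237 without A33 and A55. For the 4173 genes changed in heart r was 0.234, and 0.365 without them. These are across genes, which are not independent replicates.

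**Figure D1:**
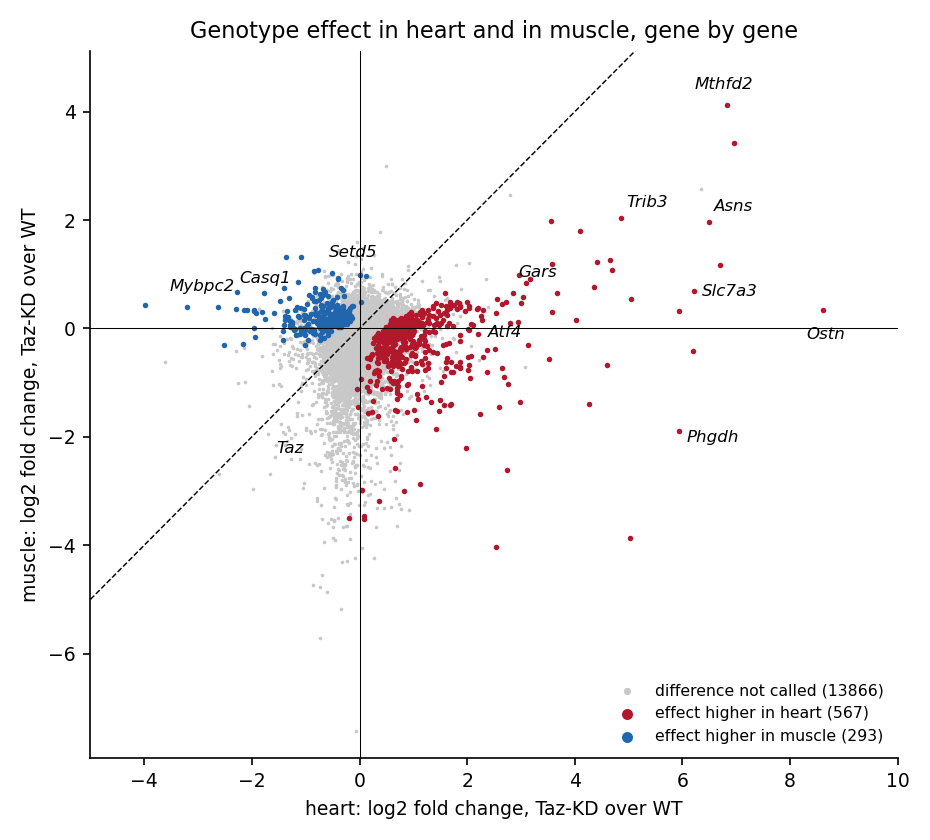
Log2 fold change of Taz-KD over WT in heart (horizontal axis) and in muscle (vertical axis) for the 14726 genes tested in both tissues, with 1 point a gene and the dashed line at equal change. The 567 genes with the effect called higher in heart (red) lie mainly along the horizontal axis to the right, the 293 called higher in muscle (blue) to the left, and Taz lies near the line of equal change.

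**Figure D2:**
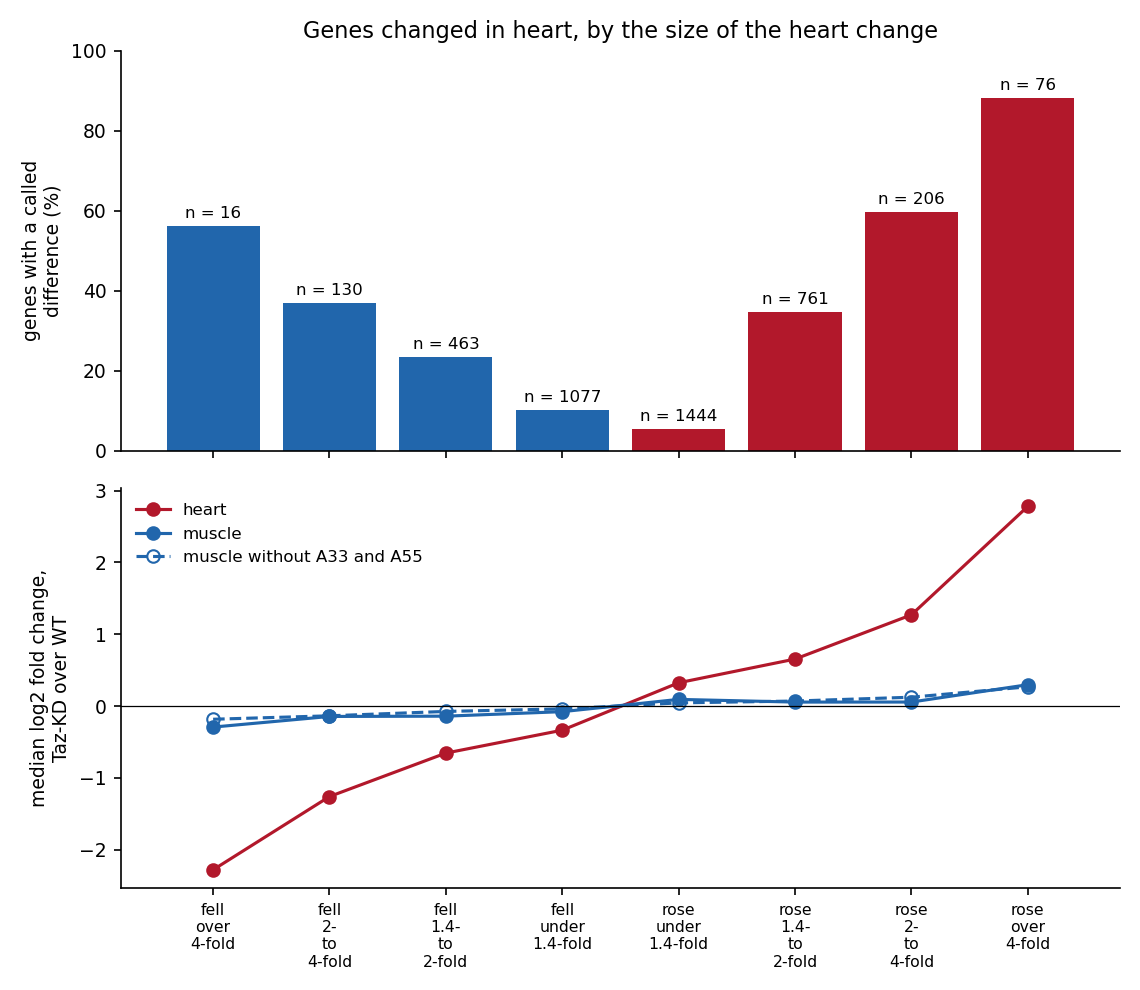
Genes changed in heart, sorted into 8 classes by the size of their heart fold change, which is itself a term of the difference. The upper bars give the percentage of each class with a called difference between tissues, from 5.33% of genes that rose under 1.4-fold to 88.2% of those that rose over 4-fold, and the lower lines give the median log2 fold change of each class in heart and in muscle, where the muscle medians stay between -0.293 and 0.297.

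In all, 2 genes were called in both tissues in the same direction. One was Taz, and the other was Mthfd2, the mitochondrial enzyme that oxidises folate-bound methylene groups and a textbook target of ATF4. Mthfd2 measured 1.35, 0.638, 1.65, 1.98 and 1.84 CPM in WT hearts and 168, 188, 168, 141 and 172 CPM in Taz-KD hearts. The muscle libraries held 5.08, 5.36, 5.23, 5.68 and 4.39 CPM in WT and 117, 103, 31.8, 79.2 and 129 CPM in Taz-KD. Knockdown and WT libraries were apart in both tissues, with the Taz-KD muscle A52 the lowest of its group. The rise was 6.83 on the log2 scale in heart and 4.12 in muscle, and the difference of -2.65 passed (95% interval -3.48 to -1.81, adjusted p = 0.000668). The muscle call for Mthfd2 was lost without A33 and A55 (log2 fold change 4.21, adjusted p = 0.166), while the difference stayed called (-2.61, adjusted p = 0.00439). No gene was called in both tissues in opposite directions (0 of 14726 by edgeR and by limma-voom, 7 by DESeq2), and at an unadjusted p under 0.05 in each tissue edgeR gave 236 genes in opposite directions and 687 in the same.

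Among the transcription factors of the stress response, the mRNA of Atf4 itself rose in heart. Its CPM were higher in muscle of either genotype than in WT heart, on the scaling between tissues. Atf4 measured 25.2, 29.4, 30.2, 27.7 and 35.4 CPM in WT hearts and 166, 127, 176, 115 and 126 CPM in Taz-KD hearts. Muscle values were 149, 206, 206, 217 and 218 CPM in WT and 267, 275, 239, 244 and 267 CPM in Taz-KD. The knockdown libraries lay above the WT libraries in both tissues, the Taz-KD hearts came up only to the lower end of WT muscle (the library A33), and the muscle change did not pass (log2 fold change 0.34, adjusted p = 0.31). The difference was -1.89 (95% interval -2.27 to -1.5, adjusted p = 6.6e-06).

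Trib3, a pseudokinase that ATF4 induces and that restrains it, measured 1.91, 2.31, 2.31, 2.32 and 2.49 CPM in WT hearts and 78.7, 61.9, 78.9, 48.3 and 56 CPM in Taz-KD hearts. In muscle the values were 2.56, 2.22, 1.6, 3.54 and 2.13 CPM in WT and 17.7, 8.25, 4.38, 7.04 and 13.9 CPM in Taz-KD. Knockdown and WT libraries were apart in both tissues, and the difference was -2.75 (adjusted p = 0.00063). Ddit3, which encodes CHOP, measured 8.46, 8.51, 9, 8.09 and 10.4 CPM in WT hearts and 32.8, 38.2, 38.0, 29.7 and 40 CPM in Taz-KD hearts. In muscle it measured 13.2, 22.7, 14.3, 36.0 and 14.4 CPM in WT and 26.4, 17.1, 13.5, 19.8 and 25 CPM in Taz-KD. Ddit3 was apart in heart and overlapped fully in muscle, where A55 was the highest library, and its difference was -1.99 (adjusted p = 0.0014). It overlaps Mars on the other strand.

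Across 14 factors of the integrated stress response that were tested, 6 had an effect higher in heart (3.07% of all genes) and none higher in muscle (1.55% of all genes, and 0 here also at an unadjusted p under 0.05, by DESeq2 and by limma-voom). Their median log2 fold change was 0.965 in heart and 0.064 in muscle over the 13 tested in both, against 0.00 and -0.02 for all genes. Atf5, a mitochondrial stress relative of ATF4, had a difference of -2.96 (means 26.5 and 331 CPM in WT and Taz-KD heart, 79.7 and 128 CPM in muscle). Cebpg, a C/EBP partner of ATF4, had one of -0.68 and Nupr1, a stress-induced nuclear protein, one of -1.98, whose adjusted p rose from 0.0156 to 0.0543 without A33 and A55.

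Upstream of eIF2 the pattern ran the other way for the mitochondrial relay. Oma1, the inner membrane protease that responds to mitochondrial stress, and Dele1, the protein it cleaves to pass that stress to an eIF2 kinase, both fell in heart, by 0.34 and 0.58 on the log2 scale. Their muscle values were 0.19 and 0.18 and did not pass, and the differences were 0.60 for Oma1 (adjusted p = 0.0417, 0.0588 without A33 and A55, and the call lost in 15 of 38 settings) and 0.81 for Dele1 (adjusted p = 0.00784). Of 12 kinases, phosphatase subunits and relay proteins tested, these 2 had an effect higher in muscle (1.55% of all genes) and 1 higher in heart (3.07% of all genes). The latter was Eif2s2, a subunit of eIF2 itself (-1.03, adjusted p = 0.017).

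The ATF4 targets rose in heart as a group and were lower in their response in muscle. Of 33 targets tested, 24 had an effect higher in heart (background 3.07%) and none higher in muscle (0 also unadjusted, by DESeq2 and by limma-voom). Without A33 and A55 the count was 19. In heart 27 of 33 rose (14.4% of all genes) and none fell (10.3% of all genes). In muscle 1 of 31, Mthfd2, was called, 5 had every Taz-KD library above every WT library (1.28% of all genes tested in muscle did), and 26 of 31 had a value above 0. Their median log2 fold change was 2.07 in heart and 0.36 in muscle, and 0.30 in muscle without A33 and A55. The heart libraries also differed in other marker sums. Endothelial markers lay at 1460 to 1643 CPM in WT and 1173 to 1319 CPM in Taz-KD hearts (7 of 14 fell, against 10.3% of all genes). Red cell markers lay at 359.1 to 595.7 and 234.8 to 369.8 CPM (6 of 8 fell). Heat shock genes lay at 2405 to 3420 and 3569 to 4438 CPM (8 of 14 rose, against 14.4% of all genes). The part of these 3 lists in the heart changes was not tested. The list of ATF4 targets was assembled as known targets of this factor, with earlier results of these data known.

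**Figure D3:**
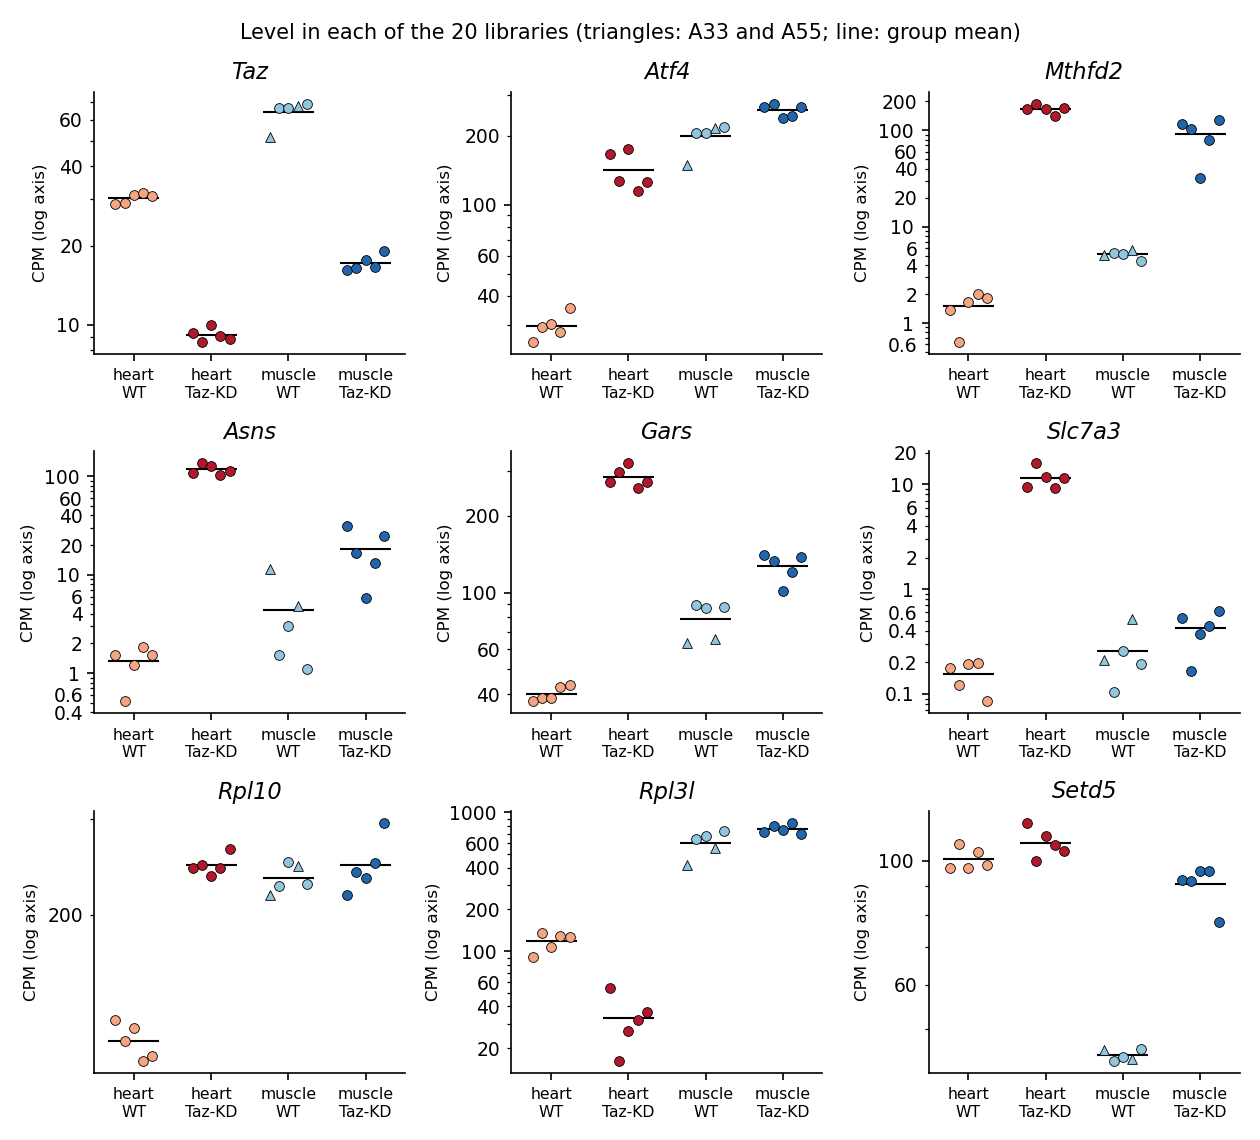
CPM on log axes in each of the 20 libraries for 9 genes, with a line at each group mean and triangles for A33 and A55. Atf4, Mthfd2, Asns, Gars, Slc7a3 and Rpl10 rose in heart with a smaller change in muscle, Taz fell in both tissues, Rpl3l fell in heart, and Setd5 rose in muscle.

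The C/EBP-ATF response element, the composite site that ATF4 and a C/EBP partner bind, has the core TGATGNAA. It was looked for on both strands of RefSeq promoters (build GRCm38.p6) that reach from 250 bases before to 50 bases after the gene start. It was found for 1219 of 27025 genes of the promoter table (4.51%), for 361 of 12572 tested genes with a promoter (2.87%), for 11 of 29 ATF4 targets (37.9%) and for 5 of 12 cytosolic tRNA synthetase genes (41.7%). Among genes that had risen in heart, 21 of 421 with an effect higher in heart held it (4.99%) and 46 of 1620 without a called difference did (2.84%). It was in 6 of 219 promoters of genes that had fallen in heart with an effect higher in muscle (2.74%), in none of 31 cytosolic ribosomal protein promoters and in none of 14 of mitochondrial tRNA synthetases. A match is a run of letters, not a bound site, and no match says only that the letters are not in that window. Mthfd2 and Setd5, the genes that rose in muscle, had none. Among other named genes with an effect higher in heart, Atf4, Ddit3, Aldh18a1, Cyb5r1 and Eprs had none either. The promoters shown are of 5 genes with an effect higher in heart, picked from those that hold a match. Each is given 5′ to 3′ on the gene's strand, with the matching letters in capitals, as TGATGNAA or its reverse complement TTNCATCA. In Gars (chr6:55037751-55038050, plus strand) the match starts 30 bases before the gene start on the opposite strand, in Asns (chr6:7693160-7693459, minus strand) 23 before on the same strand and in Pycr1 (chr11:120643699-120643998, minus strand) 103 before on the same strand. Slc7a11 (chr3:50443564-50443863, minus strand) has 2 matches, of which the first starts 66 before the gene start, and Trib3 (chr2:152344011-152344310, minus strand) has 1 that starts 14 after it on the opposite strand.
Gars: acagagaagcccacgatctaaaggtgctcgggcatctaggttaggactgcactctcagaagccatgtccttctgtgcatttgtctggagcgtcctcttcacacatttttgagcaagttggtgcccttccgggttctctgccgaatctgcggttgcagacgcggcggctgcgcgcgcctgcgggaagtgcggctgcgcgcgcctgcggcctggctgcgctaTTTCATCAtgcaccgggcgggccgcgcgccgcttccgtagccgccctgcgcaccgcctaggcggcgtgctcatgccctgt
Asns: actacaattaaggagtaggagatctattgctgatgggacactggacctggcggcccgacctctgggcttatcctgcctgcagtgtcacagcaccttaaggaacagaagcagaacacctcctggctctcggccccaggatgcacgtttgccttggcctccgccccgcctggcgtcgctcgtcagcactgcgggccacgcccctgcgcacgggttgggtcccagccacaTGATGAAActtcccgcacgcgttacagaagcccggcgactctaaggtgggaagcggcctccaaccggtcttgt
Pycr1: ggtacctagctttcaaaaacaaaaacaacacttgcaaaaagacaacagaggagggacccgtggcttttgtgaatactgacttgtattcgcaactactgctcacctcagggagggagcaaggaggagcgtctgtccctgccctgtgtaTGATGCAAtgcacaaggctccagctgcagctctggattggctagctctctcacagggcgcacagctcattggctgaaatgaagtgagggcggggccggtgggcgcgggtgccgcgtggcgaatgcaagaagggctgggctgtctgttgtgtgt
Slc7a11: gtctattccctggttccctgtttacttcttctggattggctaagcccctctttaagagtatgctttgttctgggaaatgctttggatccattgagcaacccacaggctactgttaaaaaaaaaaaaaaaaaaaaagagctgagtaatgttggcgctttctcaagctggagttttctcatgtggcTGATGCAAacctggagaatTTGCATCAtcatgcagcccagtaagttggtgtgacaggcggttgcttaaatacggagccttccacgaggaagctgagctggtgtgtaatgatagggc
Trib3: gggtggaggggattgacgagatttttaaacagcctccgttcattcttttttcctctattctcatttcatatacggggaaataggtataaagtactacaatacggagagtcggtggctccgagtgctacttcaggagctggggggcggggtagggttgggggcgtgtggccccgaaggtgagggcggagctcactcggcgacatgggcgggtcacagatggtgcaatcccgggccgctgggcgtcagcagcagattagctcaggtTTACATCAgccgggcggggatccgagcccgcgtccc

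All 3 serine synthesis genes rose in heart (14.4% of all genes), and all 3 had an effect higher in heart (3.07% of all genes). Their median difference was -3.285. Phgdh, the first enzyme of the path, measured 1.71, 0.912, 1.43, 0.820 and 0.792 CPM in WT hearts and 69.2, 74.4, 71.7, 65.0 and 63.3 CPM in Taz-KD hearts. Its muscle values were 44.9, 2.74, 14.1, 21.4 and 2.24 CPM in WT and 4.02, 5.94, 3.65, 3.05 and 7.99 CPM in Taz-KD. The muscle groups overlapped, and A33 and A55 were the highest muscle libraries for Phgdh. The muscle value was -1.89 and did not pass (adjusted p = 0.31), the difference was -7.70 (95% interval -9.53 to -5.88), and without A33 and A55 it was -6.25 (adjusted p = 4.14e-05).

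Psat1, the transaminase of the same path, differed by -3.29 (adjusted p = 0.00855), and by -2.15 without A33 and A55 (adjusted p = 0.0453). Psph, the phosphatase of the last step, differed by -0.88 (adjusted p = 0.00718). Among 12 genes of mitochondrial one-carbon metabolism, 4 had an effect higher in heart (3.07% of all genes) and 1 had it higher in muscle (1.55% of all genes). The latter was Gcsh of the glycine cleavage system (0.44, adjusted p = 0.0415, and 0.0613 without A33 and A55). The median difference of the list was -0.881. Besides Mthfd2 the 4 were Shmt2, which splits serine into glycine and a one-carbon unit (-1.17), Mthfd1l, which releases formate (-1.93), and Aldh1l2, which oxidises formyl-folate to carbon dioxide (-2.23). In muscle Shmt2 had means of 46.1 and 53.8 CPM in WT and Taz-KD, against 24.8 and 65.3 CPM in heart.

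Of 17 genes of proline, glutamate and asparagine metabolism, 3 had an effect higher in heart (3.07% of all genes) and 2 higher in muscle (1.55% of all genes). The median difference of the list was 0.006. The 3 were Asns, Aldh18a1 and Pycr1 of asparagine and proline synthesis, and the 2 were Aldh4a1, which breaks proline down (0.78), and Oat, ornithine aminotransferase (0.76, adjusted p = 0.0417). Asns, asparagine synthetase, measured 1.53, 0.517, 1.21, 1.84 and 1.53 CPM in WT hearts and 109, 135, 127, 103 and 113 CPM in Taz-KD hearts. The muscle libraries held 11.3, 1.53, 3.02, 4.84 and 1.09 CPM in WT and 31.1, 16.5, 5.82, 13.0 and 24.6 CPM in Taz-KD. The muscle groups overlapped only through A33, which at 11.3 CPM lay above the Taz-KD muscle A52. The muscle value was 1.97 (adjusted p = 0.31), and the difference was -4.41, or -3.16 without A33 and A55 (adjusted p = 0.00899).

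Aldh18a1, which makes the precursor of proline from glutamate, measured 9.48, 5.04, 5.71, 7.63 and 7.98 CPM in WT hearts and 79.3, 89.5, 95.9, 74.9 and 75.1 CPM in Taz-KD hearts. Muscle values were 6.75, 4.53, 4.59, 4.75 and 4.47 CPM in WT and 32.3, 15.9, 9.54, 18.5 and 26.4 CPM in Taz-KD. Aldh18a1 was apart in both tissues and called in muscle by DESeq2 and, with edgeR, only when A52 was left out. Its difference of -1.5 (adjusted p = 0.0154) was -1.36 without A33 and A55 (adjusted p = 0.06). Pycr1, which completes proline, was also apart in both, with 0.820 to 1.41 CPM in WT and 12.2 to 16.2 CPM in Taz-KD hearts and 2.19 to 5.89 CPM in WT and 6.61 to 10.8 CPM in Taz-KD muscle, and its difference was -2.33 (adjusted p = 0.000326).

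Genes that charge cytosolic transfer RNA rose together in heart, while the median of their mitochondrial counterparts was 0.00. Of 20 cytosolic tRNA synthetase genes, 18 rose in heart (14.4% of all genes). An effect higher in heart was called for 12 (3.07% of all genes), and for 15 without A33 and A55. None was higher in muscle (0 also unadjusted, by DESeq2 and by limma-voom). Their median log2 fold change was 1.41 in heart and 0.31 in muscle. In muscle 19 of 20 were above 0 and 7 of 20 had every Taz-KD library above every WT library (1.28% of all genes), with no call by edgeR, 14 at an unadjusted p under 0.05 and 1 by DESeq2. Gars, which charges glycine, had the smallest p of any gene with an effect higher in heart. It measured 37.5, 38.8, 38.6, 42.8 and 43.4 CPM in WT hearts and 272, 297, 321, 257 and 272 CPM in Taz-KD hearts. In muscle Gars measured 63.6, 89.3, 87.0, 66.1 and 88.2 CPM in WT and 140, 134, 102, 121 and 138 CPM in Taz-KD. Its groups were apart in both tissues, A33 and A55 were its lowest WT muscles, and the difference was -2.13 (95% interval -2.47 to -1.79, adjusted p = 5.82e-07).

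Nars, Sars, Eprs and Cars, for asparagine, serine, glutamate with proline, and cysteine, differed by -1.58, -1.76, -1.77 and -1.40. Of 17 mitochondrial tRNA synthetase genes, none had an effect higher in heart (0 also unadjusted, by DESeq2 and by limma-voom) and 1 had it higher in muscle (1.55% of all genes). That was Cars2, which fell in heart by 0.38 on the log2 scale and differed by 0.47 (adjusted p = 0.0191). The mitochondrial group's median was 0.00 in heart and 0.13 in muscle.

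Amino acid transporters rose in heart for 10 of 25 members, and 8 of 25 had an effect higher in heart (14.4% and 3.07% of all genes), 7 without A33 and A55, and none higher in muscle (0 also unadjusted, by DESeq2 and by limma-voom). Slc7a3, a carrier of cationic amino acids, measured 0.176, 0.121, 0.192, 0.198 and 0.0849 CPM in WT hearts and 9.52, 15.8, 11.8, 9.23 and 11.4 CPM in Taz-KD hearts. In muscle the values were 0.209, 0.105, 0.257, 0.522 and 0.191 CPM in WT and 0.525, 0.164, 0.377, 0.441 and 0.613 CPM in Taz-KD. Slc7a3 was thus low in muscle of either genotype with overlapping groups, and its difference was -5.45 (95% interval -6.54 to -4.36). Slc7a5, the light chain of a carrier of large neutral amino acids, and Slc3a2, its heavy chain, differed by -3.12 and -1.39.

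Slc6a9 and Slc1a4, carriers of glycine and of small neutral amino acids, differed by -2.15 and -2.75. Slc7a11, the cystine carrier, differed by -5.39 (adjusted p = 0.00984), but by -2.96 without A33 and A55 (adjusted p = 0.24), with means of 0.713 and 1.77 CPM in WT and Taz-KD muscle.

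Other ATF4 targets also differed, and Chac1 had unlike measured WT levels in the 2 tissues. Whether this reflects the tissues or how their libraries were made was not tested. Chac1, which degrades glutathione, measured 4.29, 4.25, 4.80, 4.58 and 6.03 CPM in WT hearts and 48.6, 35, 39.1, 38.5 and 32.2 CPM in Taz-KD hearts. In muscle it measured 80.2, 112, 99.9, 8.70 and 112 CPM in WT and 164, 152, 92.1, 144 and 76.4 CPM in Taz-KD. WT muscle, with A55 as the exception, held more Chac1 than Taz-KD heart, and the muscle groups overlapped. Its difference was -2.41 (adjusted p = 0.0215), and -2.81 without A33 and A55 (adjusted p = 6.76e-06), and the call was lost in 4 of 38 settings, among them limma-voom (adjusted p up to 0.175). Sesn2, a stress-induced brake on mTORC1, differed by -2.61, Pck2, the mitochondrial enzyme that makes phosphoenolpyruvate, by -1.57, and Cth, which makes cysteine from cystathionine, by -1.93.

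Cyb5r1, a cytochrome b5 reductase, and Lonp1, the ATP-dependent protease of the mitochondrial matrix, were among the 10 smallest p values. Cyb5r1 measured 14.8, 15.2, 16.0, 16.3 and 15.2 CPM in WT hearts and 130, 151, 160, 114 and 124 CPM in Taz-KD hearts, against 56, 88.0, 89.9, 80.8 and 91.8 CPM in WT muscles and 183, 152, 112, 156 and 179 CPM in Taz-KD muscles. Lonp1 measured 70.1, 79.5, 76.8, 85.4 and 85.1 CPM in WT hearts and 348, 383, 432, 315 and 370 CPM in Taz-KD hearts, against 111, 158, 146, 142 and 165 CPM in WT muscles and 188, 163, 156, 183 and 172 CPM in Taz-KD muscles. Cyb5r1 was apart in both tissues and Lonp1 in heart alone, and their differences were -2.19 and -1.96 (adjusted p = 3.56e-06 and 5.82e-07). The mitochondrial chaperones Hspa9 and Hspe1 differed by -0.89 and -0.67, calls that were lost in 5 and 19 of 38 settings (adjusted p up to 0.0791 and 0.116). Pmm1, a phosphomannomutase, differed by -2.19 (adjusted p = 2.63e-05).

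The cytosolic ribosomal proteins rose in heart nearly as a whole. Of 42 tested, 40 rose in heart (14.4% of all genes) and 33 had an effect higher in heart (3.07% of all genes), 27 without A33 and A55. None of the 42 had it higher in muscle (0 also unadjusted, by DESeq2 and by limma-voom). Their median log2 fold change was 0.729 in heart and 0.065 in muscle, with 31 of 42 above 0 in muscle and none called there (0 also unadjusted and by DESeq2). Rpl10 measured 128, 117, 124, 108 and 110 CPM in WT hearts and 244, 247, 236, 243 and 264 CPM in Taz-KD hearts. Its muscle values were 218, 225, 250, 246 and 228 CPM in WT and 217, 240, 234, 248 and 295 CPM in Taz-KD. Taz-KD hearts thus lay within the muscle range, the muscle groups overlapped, and the difference was -0.99 (95% interval -1.25 to -0.73, adjusted p = 0.000104). Rps7, Rps24 and Rpl6 differed by -0.80, -0.96 and -0.60. Ribosomal protein genes and Eef1a1 have many near-identical pseudogenes, and how reads that map to several places were counted is not given in the sources used here, so their values are uncertain.

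Rpl3 and Rpl3l, paralogues that can take the same place in the ribosome, went in opposite directions in heart. Rpl3 measured 82.9, 63.0, 75, 62.8 and 72.2 CPM in WT hearts and 197, 234, 247, 207 and 245 CPM in Taz-KD hearts. The muscle libraries held 151, 60.6, 58.4, 101 and 42.0 CPM in WT and 50.7, 47.7, 51.9, 55.7 and 76.2 CPM in Taz-KD. The muscle groups of Rpl3 overlapped, with A33 and A55 highest, and the difference was -2.22, or -1.60 without them (adjusted p = 6.03e-05).

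Rpl3l, the form restricted to striated muscle, measured 91.6, 134, 108, 130 and 127 CPM in WT hearts and 54.4, 16.2, 26.8, 32.1 and 36.5 CPM in Taz-KD hearts. Muscle values were 420, 648, 683, 556 and 732 CPM in WT and 719, 801, 744, 841 and 702 CPM in Taz-KD. It was apart in heart and overlapped in muscle, and the difference was 2.16 (95% interval 1.5 to 2.82, adjusted p = 0.000484). The elongation factor Eef1a1, the form of proliferating and most non-muscle cells, measured 474, 337, 397, 345 and 355 CPM in WT hearts and 1437, 1563, 1553, 1552 and 1499 CPM in Taz-KD hearts. In muscle the values were 1297, 525, 525, 822 and 415 CPM in WT and 427, 366, 431, 431 and 561 CPM in Taz-KD. Again the muscle groups overlapped with A33 and A55 highest, and the difference was -2.69, or -2.14 without them (adjusted p = 4.45e-07).

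**Figure D4:**
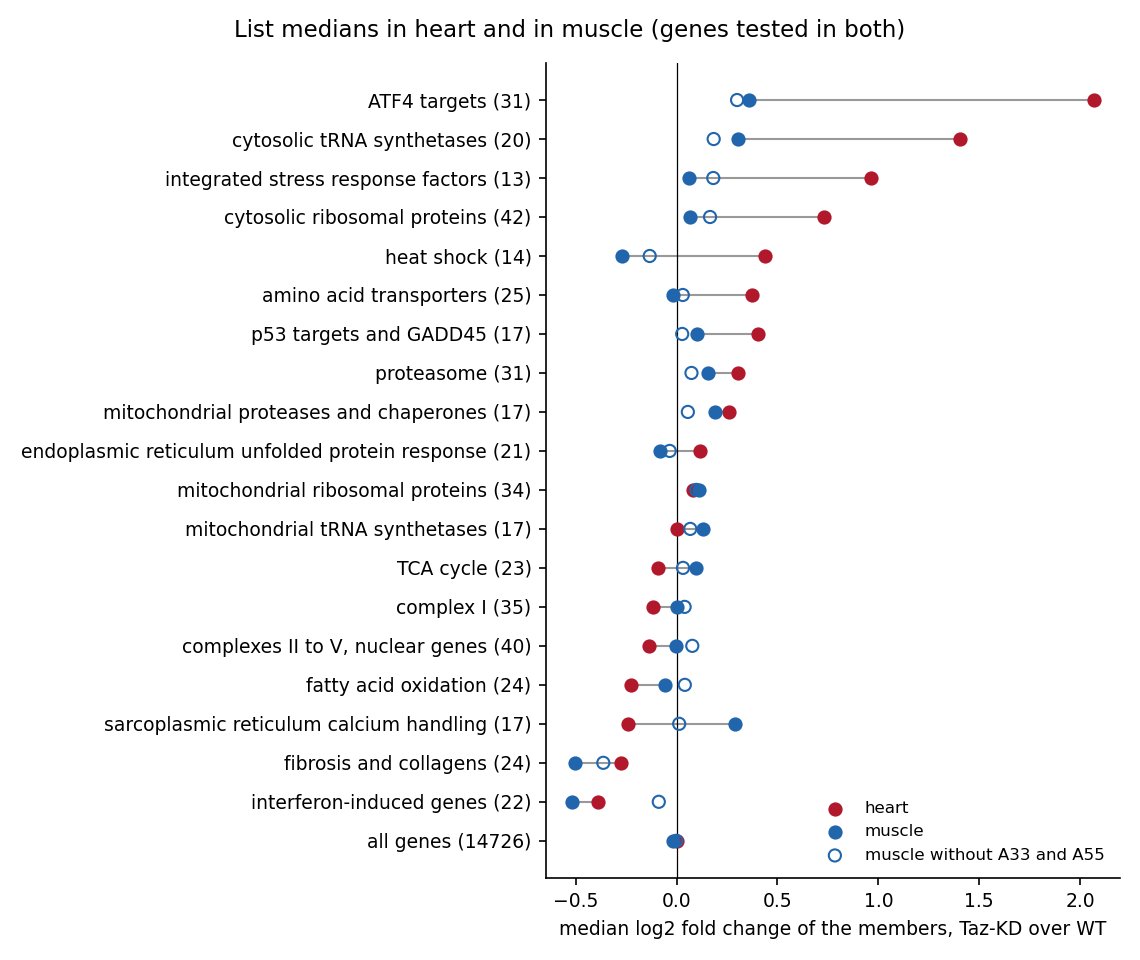
Median log2 fold change of Taz-KD over WT in heart (red), in muscle (blue) and in muscle without A33 and A55 (open circles) for 19 gene lists and all genes, with the number of members tested in both tissues in brackets. ATF4 targets lie at 2.07 and 0.36, cytosolic tRNA synthetases at 1.41 and 0.31, and cytosolic ribosomal proteins at 0.729 and 0.065, while all genes lie near 0 in both tissues.

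Isoforms of cytochrome c oxidase subunits moved apart in heart. Cox7a1, the subunit form of heart and muscle, measured 211, 326, 219, 258 and 263 CPM in WT hearts and 147, 95.5, 112, 96.0 and 131 CPM in Taz-KD hearts. In muscle it measured 137, 195, 157, 331 and 172 CPM in WT and 188, 227, 138, 183 and 211 CPM in Taz-KD. Cox7a1 was apart in heart and overlapped in muscle, where A55 was highest, and the difference was 1.07 (adjusted p = 0.0397), or 1.24 without A33 and A55 (adjusted p = 0.00391). The call for Cox7a1 was lost in 17 of 38 settings, 14 of them with 1 library left out (adjusted p up to 0.118).

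Cox8a, the form of most tissues, measured 52.3, 52.6, 48.7, 56.1 and 57.4 CPM in WT hearts and 102, 121, 95.6, 100.3 and 95.1 CPM in Taz-KD hearts. Its muscle values were 92.5, 48.3, 44.2, 80.7 and 33.4 CPM in WT and 48.0, 43.9, 33.4, 50 and 54.2 CPM in Taz-KD. The groups were apart in heart and overlapped in muscle, with A33 and A55 highest, and the difference was -1.33, or -0.82 without them (adjusted p = 0.0117). Cox6a1, also a form of most tissues, differed by -1.45. Cox8b, the heart and muscle form, fell by 1.01 on the log2 scale in heart, and its difference of 0.84 did not pass (adjusted p = 0.0661) but did in 7 of 38 other settings, among them without A33 and A55 (0.88, adjusted p = 0.00384).

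In lists of mitochondrial energy metabolism the share with a called difference ran from 0% to 13% of members, against 4.62% of all genes. Complex I had none among 36 genes in either direction (9 at an unadjusted p under 0.05, all higher in muscle, 2 by DESeq2 and 1 by limma-voom), although 10 of 36 fell in heart (10.3% of all genes). Fatty acid oxidation had 1 of 24 higher in muscle (1.55% of all genes), with 10 of 24 fallen in heart (10.3% of all genes). Its medians were -0.227 in heart and -0.058 in muscle. That gene was Acads, short-chain acyl-CoA dehydrogenase (0.54, adjusted p = 0.0303, 0.0553 without A33 and A55, and the call lost in 11 of 38 settings). Complexes II to V had 2 of 40 higher in heart, Cox6a1 and Cox8a (3.07% of all genes), and 2 higher in muscle, Cox7a1 and Uqcrfs1 (1.55% of all genes). Of 23 TCA cycle genes, 1 had an effect higher in heart (3.07% of all genes) and 2 higher in muscle (1.55% of all genes). Without A33 and A55 the counts were 1 and 1. The 13 mitochondrially encoded genes had none (0 also unadjusted, by DESeq2 and by limma-voom).

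Glucose handling had differences in both directions. Of 30 glycolysis and glycogen genes, 6 had an effect higher in heart (3.07% of all genes) and 2 higher in muscle (1.55% of all genes). Slc2a4, the insulin-responsive glucose transporter GLUT4, measured 230, 267, 237, 259 and 262 CPM in WT hearts and 208, 168, 172, 179 and 194 CPM in Taz-KD hearts. The muscle libraries held 474, 788, 688, 496 and 829 CPM in WT and 911, 900, 850, 882 and 838 CPM in Taz-KD. Taz-KD was below WT in every heart comparison and above it in every muscle comparison, with A33 and A55 the lowest muscles. The muscle change did not pass (0.39, adjusted p = 0.31), and the difference was 0.87, or 0.63 without A33 and A55 (adjusted p = 0.0058).

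Hk1, a hexokinase, measured 121, 121, 112, 123 and 149 CPM in WT hearts and 220, 258, 249, 186 and 204 CPM in Taz-KD hearts. In muscle Hk1 measured 19.1, 14.5, 16.4, 23.2 and 15.2 CPM in WT and 11.5, 9.50, 12.4, 13.7 and 14.8 CPM in Taz-KD. It was apart in heart and overlapped in muscle by 1 library of each group, and the difference was -1.35 (adjusted p = 0.000456). Pfkp, a phosphofructokinase, Slc2a1, the transporter GLUT1, and Gyg, the primer of glycogen, differed by -1.58, -0.91 and -1.32. Eno3, the muscle enolase, differed by 1.19 in the other direction, a call lost in 16 of 38 settings (adjusted p up to 0.0888), with means of 620 and 369 CPM in WT and Taz-KD heart and 4967 and 6749 CPM in muscle.

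Secreted factors of the stress response were low in muscle of either genotype. Gdf15, a circulating stress cytokine, measured 0.326, 0.334, 0.329, 0.876 and 0.877 CPM in WT hearts and 23.1, 10.6, 23.9, 5.97 and 6.10 CPM in Taz-KD hearts. Muscle values were 0.489, 0.440, 0.0963, 0.464 and 0.136 CPM in WT and 0.974, 0.614, 0.236, 0.671 and 1.13 CPM in Taz-KD. The muscle groups overlapped, and the difference of -3.55 (adjusted p = 0.00947) no longer passed without A33 and A55 (-3.11, adjusted p = 0.0983). Fgf21, a metabolic hormone, was at 0 to 0.0304 CPM in WT and 0.737 to 2.60 CPM in Taz-KD hearts, and at 0 to 0.0963 CPM in WT and 0 to 0.172 CPM in Taz-KD muscles. It was not tested in muscle alone, its fitted fold changes depend on the prior count, and its difference did not pass (adjusted p = 0.116) but did in 4 of 35 other settings, which were DESeq2 and the limma-voom fits (lowest adjusted p 0.00778). Of 6 mitokines and receptors tested, 3 had an effect higher in heart (3.07% of all genes) and none did without A33 and A55.

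Osteocrin, a secreted peptide that spares natriuretic peptides from clearance and is known from muscle and bone, had the most negative difference among the genes described. Ostn measured 0.126, 0.0608, 0.0274, 0.0283 and 0 CPM in WT hearts and 14.8, 24.6, 21.4, 23.6 and 17.5 CPM in Taz-KD hearts. In muscle the values were 2.96, 57.4, 45.3, 72.4 and 38.5 CPM in WT and 59.0, 13.8, 74.3, 66.2 and 65.8 CPM in Taz-KD. It was nearly absent from WT heart and overlapped in muscle, where A33 was lowest in WT and A39 in Taz-KD, and the difference was -8.22 (95% interval -10.47 to -5.97, adjusted p = 0.000197).

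Some called differences belonged to genes without a call in heart. Of these genes, 36 had an effect higher in heart with a muscle value below 0, and 20 more had one without being tested in muscle alone. Npr3, the clearance receptor of natriuretic peptides, had means of 33.4 and 34.2 CPM in WT and Taz-KD heart and 53 and 7.08 CPM in muscle (difference -2.94, adjusted p = 0.0285). Sln, sarcolipin, a regulator of the calcium pump, had 0.704 and 4.08 CPM in heart and 31.4 and 1.96 CPM in muscle (-6.52, adjusted p = 0.0412), and Klb, the FGF21 co-receptor, 0.336 and 0.427 CPM in heart and 0.529 and 0.034 CPM in muscle (-4.15, adjusted p = 0.0229). None of these 3 passed without A33 and A55 (adjusted p = 0.171, 0.1 and 0.0831). Adipocyte markers summed to 1496 to 6618 CPM in WT and 1389 to 2085 CPM in Taz-KD muscle, and slow fibre markers to 701 to 32860 CPM and 263 to 6852 CPM, and their part in these differences was not tested. The median muscle log2 fold change was -2.34 for 9 adipocyte markers and -2.11 for 9 slow fibre markers tested in both tissues, and -0.62 and -1.52 without A33 and A55.

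Effects higher in muscle were mostly falls in heart. Of the 293 genes among the 14726, 275 had fallen in heart. The muscle value was above 0 for 239 of these 275 and below 0 for 36. Muscle libraries also enter the difference, so these signs were not tested. Fitm1, which helps to form lipid droplets, measured 37.4, 36.9, 39, 42.2 and 46.5 CPM in WT hearts and 20.1, 13.4, 15.8, 13.0 and 18.4 CPM in Taz-KD hearts. In muscle it measured 104, 157, 156, 175 and 152 CPM in WT and 165, 173, 157, 169 and 178 CPM in Taz-KD. Fitm1 was apart in heart and overlapped in muscle, and the difference was 1.5 (adjusted p = 9.16e-05).

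Of 18 genes of calcium handling by the sarcoplasmic reticulum, 1 had an effect higher in muscle, Casq1 (1.55% of all genes), and 1 higher in heart, Sln (3.07% of all genes). Of 38 sarcomere genes, 2 had it higher in muscle (1.55% of all genes), and 1 without A33 and A55. None had it higher in heart (3.07% of all genes), against 4 at an unadjusted p under 0.05, 2 by DESeq2 and 0 by limma-voom. Casq1, the skeletal calsequestrin, measured 17.8, 4.13, 15.4, 12.7 and 9.94 CPM in WT hearts and 3.47, 2.91, 2.27, 2.55 and 2.22 CPM in Taz-KD hearts. Its muscle values were 2165, 2630, 3938, 975 and 3807 CPM in WT and 3045, 3397, 4466, 3902 and 2637 CPM in Taz-KD. It was apart in heart and overlapped in muscle, where A55 was lowest, and the difference was 2.53 (adjusted p = 0.00469). Its antisense neighbour Gm17224 differed by 2.49, and the reads of the pair cannot be told apart without the strand setting. Clcn1, the muscle chloride channel, differed by 2.70, Scn4b, a sodium channel beta subunit, by 2.49, and Mybpc2, the fast form of myosin binding protein C, by 3.07.

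Ldhd, a D-lactate dehydrogenase, Gfra4, a co-receptor of the GDNF family, and the genes Prr29 and Gm43672, whose roles are not known here, complete the 10 smallest p values on this side with Setd5, at differences of 0.95, 1.46, 1.41 and 1.99. Hdac4, a repressor of muscle genes, fell in heart by 1.03 on the log2 scale, had means of 41.2 and 42.2 CPM in WT and Taz-KD muscle, and differed by 1.09.

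**Figure D5:**
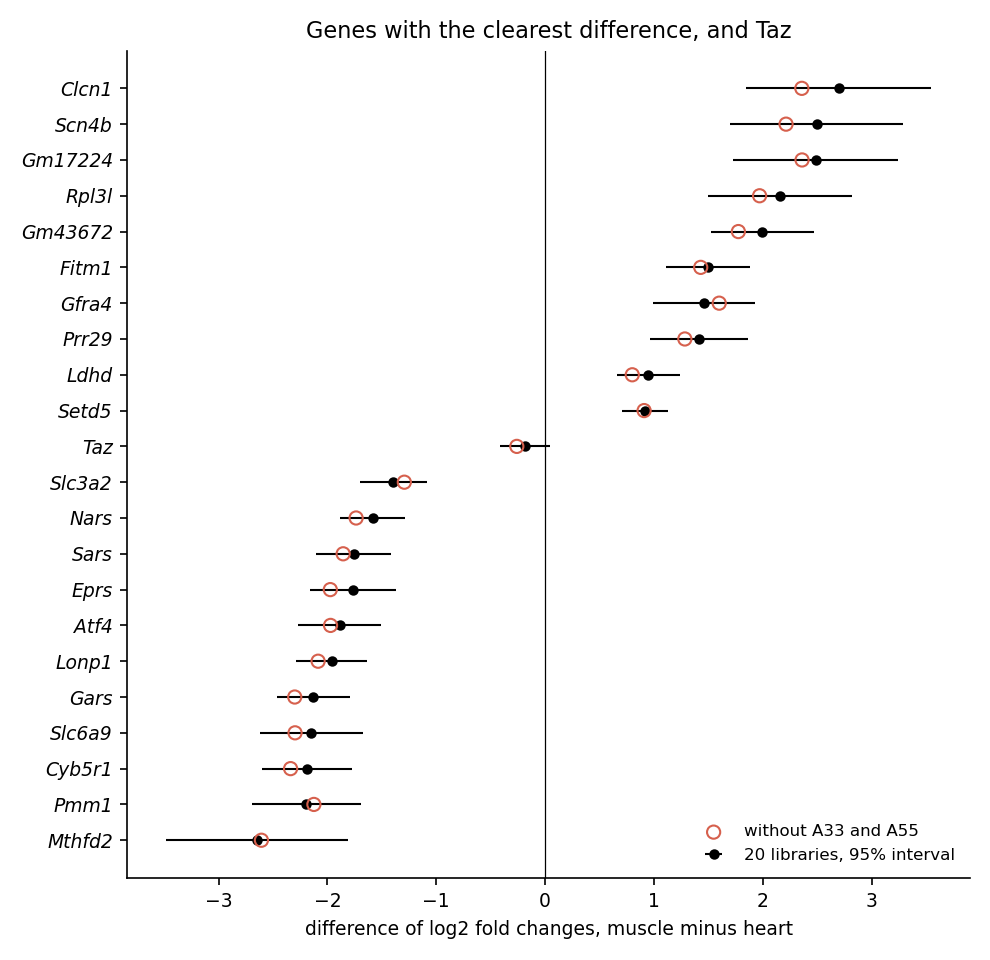
Difference of the log2 fold changes, muscle minus heart, with its 95% interval (black) and without A33 and A55 (open circles). Shown are Taz, Mthfd2 and the 10 genes with the smallest p on each side among genes with a group mean of at least 1 CPM in both tissues. The interval of Taz spans 0, and the values without A33 and A55 keep the sign of those from all 20 libraries.

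Setd5 was the 1 gene called in muscle and not in heart. Setd5, a chromatin regulator on chromosome 6, measured 45.9, 43.8, 44.5, 44.2 and 46.0 CPM in WT muscles and 92.4, 91.8, 95.8, 96.0 and 77.6 CPM in Taz-KD muscles. In heart it measured 97.1, 107, 96.9, 104 and 98.3 CPM in WT and 117, 99.97, 111, 107 and 104 CPM in Taz-KD. Taz-KD muscle came up to the lower edge of the heart range, the heart groups overlapped, and the difference was 0.92 (95% interval 0.71 to 1.12, adjusted p = 2.63e-05). The gene runs from chr6:113077365 to 113153435 on the plus strand (GRCm38), and its start lies 32 bases from that of Gt(ROSA)26Sor, the gene of the locus in the transgene's name, on the minus strand.

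Gt(ROSA)26Sor measured 4.44, 5.38, 4.69, 4.69 and 4.50 CPM in WT hearts and 8.62, 7.84, 8.36, 9.16 and 9.41 CPM in Taz-KD hearts, against 7.52, 5.20, 5.49, 7.97 and 5.54 CPM in WT muscles and 12.2, 13.8, 12.4, 13.6 and 17.4 CPM in Taz-KD muscles. Thumpd3, which overlaps it on the other strand, measured 11.5, 14.6, 13.4, 14.2 and 12.3 CPM in WT hearts and 19.3, 15.3, 20.5, 16.8 and 16.9 CPM in Taz-KD hearts, against 16.6, 17.4, 15.8, 13.0 and 17.4 CPM in WT muscles and 21.2, 21.9, 22.6, 23.1 and 19.9 CPM in Taz-KD muscles. Both were apart in both tissues. The muscle change of Gt(ROSA)26Sor did not pass (1.08, adjusted p = 0.239) but did without A33 and A55 (1.36, adjusted p = 0.0134). The difference between tissues passed for neither (0.26, adjusted p = 0.457, and 0.01, adjusted p = 1). Within 500 kb on either side, 29 genes were tested and 1, Setd5, had a called difference. The part of the transgene in these values was not tested.

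The genes of cardiolipin synthesis and remodelling had 2 of 15 with an effect higher in heart (3.07% of all genes), 1 without A33 and A55, and none higher in muscle (1 unadjusted, 1 by DESeq2, 0 by limma-voom). These were Cds2, which makes the CDP-diacylglycerol that cardiolipin is built from (-0.63, adjusted p = 0.00495), and Prelid1, which carries phosphatidic acid into mitochondria (-0.90, adjusted p = 0.0343, 0.1 without A33 and A55, and the call lost in 17 of 38 settings).

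Several other lists had no or few called differences. Interferon-induced genes had 0 of 22 (3 at an unadjusted p under 0.05, 0 by DESeq2 and by limma-voom) and collagens with other fibrosis genes 0 of 24 (3 unadjusted, 0 by DESeq2 and by limma-voom), with medians of -0.389 and -0.276 in heart and -0.517 and -0.502 in muscle. Without A33 and A55 the muscle medians were -0.088 and -0.363. The proteasome had 1 of 31, the core subunit gene Psmb1 (3.07% of all genes), and 6 without A33 and A55, all higher in heart. In heart 21 of 31 had risen (14.4% of all genes), and 31 of 31 were above 0 in muscle. Of 17 p53 targets and GADD45 genes 5 had an effect higher in heart (3.07% of all genes), and 3 without A33 and A55. Among the 5 were the cell cycle inhibitor Cdkn1a (-2.06) and the death inducer Bbc3 (-1.88). Gadd45g, of the same list, had it higher in muscle (1.07, adjusted p = 0.0335, and 0.0723 without A33 and A55). Of 21 genes of the unfolded protein response of the endoplasmic reticulum, 2 had an effect higher in heart (3.07% of all genes). Both are sensors of that response, Ern1 (-1.42) and Atf6 (-0.86).

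The starting levels of the tissues differed for the genes that differed in response. Among the 567 genes with an effect higher in heart, 373 (65.8%) had a higher mean CPM in WT muscle than in WT heart, against 56.9% of all 14726. Their median log2 ratio of muscle to heart was 0.58 in WT and -0.62 in Taz-KD. For the 293 genes with an effect higher in muscle, 200 (68.3%) were higher in WT muscle, and the ratio was 0.55 in WT and 1.39 in Taz-KD, against 0.23 and 0.14 for all genes. These ratios use the same libraries as the difference and rest on the scaling between tissues, so they are given without a test.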

How the data were processed

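RNA was sequenced from 10 hearts and 10 femur muscles, 1 library a mouse. Per the labels, the authors removed ribosomal RNA with Ribo-Zero, marked the strand with dUTP and sequenced paired ends of 150 bases. Per the study's methods and the submitters' processing notes they aligned reads with STAR to mm10 (GRCm38), counted reads per gene with featureCounts 1.6.4 and ran DESeq2 2.11.40.6. The deposited values are unnormalised counts per Ensembl gene, 47069 genes for heart and 53801 for muscle, of which 46649 are shared. Not given in the sources used here are the strand setting, how reads with several matches were handled, and the annotation release.

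Symbols and positions were taken from GENCODE M21 (46574 of the shared genes). The fits used edgeR 4.0.16 under R 4.3.3: genes kept by filterByExpr, TMM factors over all 20 libraries, robust dispersion, quasi-likelihood test, Benjamini-Hochberg adjustment at 0.05. The contrast was Taz-KD minus WT in muscle less the same in heart. Heart and muscle were also fitted alone, with their own factors, so the difference is not exactly the subtraction of the 2 printed fold changes. CPM are counts scaled by TMM factors over all 20 libraries and are not corrected for gene length. Intervals are at 95%. Groups are called apart when every library of one lies above every library of the other. Alternatives used limma 3.58.1, DESeq2 1.42.0, other scalings and filters, and left out libraries. Code was tested on simulated data.

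Depth over the shared genes was 26952503 to 30079416 counts in WT hearts, 30236395 to 35289360 in Taz-KD hearts, 36368202 to 61015642 in WT muscles and 46911393 to 74259247 in Taz-KD muscles. Heart and muscle were counted into separate tables and come from different mice, so library protocol and tissue cannot be told apart. Replicates were numbered in accession order, and these numbers pair nothing. The muscle library names run in neighbouring WT and Taz-KD numbers: A33 and A34, A40 and A39, A51 and A52, A55 and A56, A57 and A58. The labels do not say what this stands for, the fits were unpaired, and an effect of it was not tested. Named genes were Taz, the 10 smallest p values of the difference in each direction among genes with a group mean of at least 1 CPM in both tissues, genes changed in both tissues, the leading members of each list and transcripts the study names. Members and lists were chosen with earlier results of these data known.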

Additional observations from a re-analysis of the deposited data

Results flagged for a closer look

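A library was marked when its gap to the nearest other library of its group of 5, divided by the range of the group, was above 0.71. Of 160 groups of 5 tested 15 were marked, and chance marks about 1 in 20. The WT muscle A33 was marked low for Taz (51.9 CPM), Atf4 (149 CPM) and Gm17224 (0.745 CPM) and high for Aldh18a1 (6.75 CPM), summed lymphocyte markers (561 CPM) and summed macrophage markers (314 CPM). Other WT muscles were marked high, A57 for Prr29 (8.89 CPM) and A51 for Fgf21 (0.0963 CPM). Among Taz-KD muscles, A58 was high for Rpl3 (76.2 CPM) and low for Setd5 (77.6 CPM), A39 was low for Ostn (13.8 CPM), and A56 was low for Fgf21 (0 CPM). Among hearts, the WT library R1791 was high for Gt(ROSA)26Sor (5.38 CPM), and the Taz-KD library R1793 was high for Cox8a (121 CPM) and for summed skeletal myofibre markers (1896 CPM).

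The genotype effect differed between the tissues, by the test of the difference itself, for 952 genes, among them 86 of the genes named. Values are the log2 difference, muscle minus heart. For stress response factors and their relay it was -1.89 for Atf4, -2.96 for Atf5, -2.75 for Trib3, -1.99 for Ddit3, -0.68 for Cebpg, -1.98 for Nupr1, -1.03 for Eif2s2, 0.81 for Dele1 and 0.60 for Oma1. For serine and mitochondrial one-carbon metabolism it was -7.70 for Phgdh, -3.29 for Psat1, -0.88 for Psph, -2.65 for Mthfd2, -1.93 for Mthfd1l, -1.17 for Shmt2 and -2.23 for Aldh1l2. For other amino acid metabolism it was -4.41 for Asns, -1.5 for Aldh18a1, -2.33 for Pycr1, -1.93 for Cth, -2.41 for Chac1, -0.96 for Gss and -1.57 for Pck2. For amino acid transporters it was -5.45 for Slc7a3, -3.12 for Slc7a5, -5.39 for Slc7a11, -1.39 for Slc3a2, -2.15 for Slc6a9 and -2.75 for Slc1a4.

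For tRNA synthetases the difference was -2.13 for Gars, -1.58 for Nars, -1.76 for Sars, -1.77 for Eprs, -1.40 for Cars and 0.47 for Cars2. Among ribosomal proteins and an elongation factor it was -0.99 for Rpl10, -2.22 for Rpl3, 2.16 for Rpl3l, -0.80 for Rps7, -0.96 for Rps24, -0.60 for Rpl6 and -2.69 for Eef1a1. Mitochondrial proteases, chaperones and membrane proteins had -1.96 for Lonp1, -0.89 for Hspa9, -0.67 for Hspe1, -1.26 for Chchd6, -0.90 for Prelid1 and -0.63 for Cds2. Respiratory chain, fatty acid and antioxidant genes had 1.07 for Cox7a1, -1.33 for Cox8a, -1.45 for Cox6a1, 0.54 for Acads, 0.84 for Me3 and -0.83 for Cat. Genes of glucose handling had 0.87 for Slc2a4, -1.35 for Hk1, -1.58 for Pfkp, -0.91 for Slc2a1, -1.32 for Gyg, 1.19 for Eno3 and 0.95 for Ldhd.

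Secreted factors and receptors had -8.22 for Ostn, -3.55 for Gdf15, -5.92 for Adm2 (-4.54 and no longer called without A33 and A55, adjusted p = 0.468), -2.94 for Npr3, -4.15 for Klb and 1.46 for Gfra4. Genes of contraction, excitability and lipid storage had 2.53 for Casq1, 3.07 for Mybpc2, 2.70 for Clcn1, 2.49 for Scn4b, -6.52 for Sln, 1.5 for Fitm1 and 1.09 for Hdac4. Genes of stress signalling, growth arrest and the endoplasmic reticulum had -2.61 for Sesn2, -2.06 for Cdkn1a, -1.88 for Bbc3, -1.42 for Ern1, -0.86 for Atf6 and -1.61 for Npas2. The remaining genes had -2.19 for Cyb5r1, -2.19 for Pmm1, 0.92 for Setd5, 1.41 for Prr29, 2.49 for Gm17224 and 1.99 for Gm43672.

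Genes listed in 1 of the 2 tables entered no comparison between tissues. The heart table alone lists 420 genes, with 0.0379% of its counts, of which 85 were tested and 12 changed in heart. The muscle table alone lists 7152, with 0.146% of its counts, of which 482 were tested and 0 changed by edgeR.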

How the results depend on the processing

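Of 86 named genes with a called difference, 86 kept its direction and 67 kept the call in every setting that gave them a value, of 35 to 38 run, and 19 lost it in at least 1. With 1 library left out, the call was lost in 14 of 20 cases for Cox7a1 and Eno3, 13 for Hspe1 and Sln, 11 for Oma1 and Prelid1, 8 for Adm2, 6 for Acads, 4 for Hspa9 and 3 for Npr3 and Gss. Among all 952 calls, no gene was called with the opposite sign under any setting. The counts moved more. DESeq2 gave 991 differences higher in heart and 598 higher in muscle, 144 genes changed in muscle, 40 changed in both tissues in the same direction and 7 in opposite directions. With no filter on low counts, 204 were higher in muscle. Without the hearts R2 and R3, 421 were higher in heart. Leaving out 1 library at a time gave 417 (without R1796) to 1402 (without A57) higher in heart, 190 (without R1796) to 640 (without A57) higher in muscle, 3 to 5 genes changed in muscle and 2 to 4 changed in both in the same direction, the upper values without A52. The cause was not tested. With no scaling factors the median difference of all genes was -0.207, against -0.01, and 79.8% of calls were higher in heart, against 66.4%. Chosen after seeing the data were the fit without A33 and A55, weights per library and the slow to fast fibre ratio as covariate, which left 455 of the 632 and 219 of the 320. With 5 mice a group and larger spread in muscle, small differences could not be seen, and a missing call shows no likeness. No analysis paired between tissues was possible because the tissues came from different mice and the labels give no shared replicate numbers.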
